A study of Mus musculus with 20 samples.

Results

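The first maturation step of red cell precursors lacking both mDia1 and miR-146a was measured on 4 of the 20 mouse arrays of the series, chosen by sample title: 2 arrays of double-knockout (DKO) cells at stage I, labelled proerythroblasts, and 2 at stage II+III, labelled basophilic and polychromatic erythroblasts. All 4 came from female mice 1 year old, on the C57BL/6 background, labelled healthy and carrying both deletions. The matching step in double wild-type (DWT) mice of the same age and background, with 1 male and 1 female array at each stage, and the orthochromatic stage IV of both genotypes were used for comparison. The other 8 arrays of the series held cultured wild-type cells, with or without 100 ng/mL interleukin 6, and gave only an alternative estimate of the spread. The series states 2 mice per genotype without technical replicates, but no label ties a DKO array of stage I to a DKO array of stage II+III from the same animal. How the stages were isolated, and whether the deletions were confined to any tissue, is not given in the sources used here. Replicate numbers below are only names, and p-values measure the spread between these samples. The comparison asks which RNAs differ between the earliest labelled erythroblasts and the next stage when both genes are missing.

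Proerythroblasts mature through basophilic, polychromatic and orthochromatic erythroblasts, which divide, fill with haemoglobin, build the red cell membrane and skeleton and at last lose their nucleus. The programme is driven by the transcription factors GATA1 and KLF1 and by erythropoietin, whose receptor keeps the early cells alive. mDia1, encoded by Diaph1, is a formin that nucleates and elongates straight actin filaments. miR-146a is a microRNA that dampens innate immune signalling by repressing Traf6 and other adaptors upstream of NF-kB. Both genes lie in the part of the human genome that is lost in a form of myelodysplastic syndrome with defective red cell production.

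The deleted genes were looked at first. Diaph1 had a signal of 7.45 and 7.25 in the 2 DKO-I arrays and of 7.0 and 7.59 in the 2 DKO-II+III arrays, in log2 units as deposited. In the DWT arrays it had 10.76 and 11.49 at stage I and 10.41 and 11.07 at stage II+III. The background level of an array, the 95th percentile of its 23 background control probe sets, was 7.62 and 7.74 at DKO-I and 7.45 and 7.62 at DKO-II+III, so Diaph1 lay below it in all 4 DKO arrays and above it in the DWT arrays. Whether its probes lie inside the deleted part was not tested. No probe set in the named table reads miR-146a, so its loss was not checked on these arrays. The mature strand that represses Traf6, shown because its loss defines the genotype, comes from the RefSeq table of build GRCm38.p6 at chr11:43374435-43374456, minus strand, with its seed, bases 2 to 8, in capitals.
mmu-miR-146a-5p: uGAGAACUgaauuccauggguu

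Among the seed's known targets, Traf6 had a signal of 9.03 and 7.53 at DKO-I and of 9.42 and 9.15 at DKO-II+III. The DKO-II+III arrays were the higher ones, by 1.00 ± 0.50 (SE, log2), and the gene did not pass (adjusted p = 0.495, limma). Of 12 measured miR-146a targets none passed in the step, where 0.327% of all named probe sets passed. Their median change was -0.17, against -0.11 over all named probe sets. Without DKO-I replicate 2 the targets' median was -0.58 and Fas, the death receptor, passed as lower at stage II+III (adjusted p = 0.0446, limma), although all 4 of its arrays lay below background, at 7.37 and 6.21, then 5.48 and 5.70.

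The DKO-I arrays differed from each other more than the arrays of any other group. Their correlation over the 19572 named probe sets was 0.903, and 2028 of these lay over 2 log2 units apart. The DKO-II+III pair had a correlation of 0.970 with 393 probe sets that far apart, and no other group had more than 219. DKO-I replicate 2 correlated at most 0.909 with any other array of the series. Values without it, from DKO-I replicate 1 alone, are therefore given beside the results. That fit gives the lone stage I array the spread of the remaining groups. The erythroid label was checked on 8 measured erythroid markers, whose mean signal was 9.87 and 9.77 at DKO-I, 12.84 and 12.65 at DWT-I, and 12.15 and 12.94 at DKO-II+III. Both DKO-I arrays thus lay below all the others. Gata1, which defines the lineage, had 7.16 and 8.0 at DKO-I, below background in replicate 1 and just above it in replicate 2. Slc4a1 and Alas2 were well above background in both. The 14 measured neutrophil markers were all above background in all 4 DKO arrays. What part cells of other types had in the results below was not tested, and in bulk RNA fewer cells of a type and less RNA per cell cannot be told apart.

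In the DKO step 64 of 19572 named probe sets passed at an adjusted p under 0.05 (0.327%), 47 of them higher at stage II+III (0.24%) and 17 lower (0.0869%), by limma with Benjamini-Hochberg adjustment. The rising genes included 13 of the red cell membrane and skeleton and were led by Zfpm1, Aqp1, Kel, Gstm5 and Slc14a1, with a median change of 3.46 on the log2 scale. The falling genes, led by Entpd1, Scrg1, Cep19 and Cstdc4, had a median of -2.89 and included Il1r2, Chil1 and Mgam, which are known from neutrophils. For all 64 the 2 arrays of a stage did not overlap those of the other, which also fixes the direction when any of these arrays is left out. The share without overlap over all named probe sets is not given here, so this adds no support to the calls.

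The size of this list rested on single arrays and on the spread borrowed from the other groups. Without DKO-I replicate 2, 118 probe sets passed (0.603%), 78 up (0.399%) and 40 down (0.204%), and 56 were shared, which is 87.5% of the 64 and 47.5% of the 118. The 8 calls lost there were Entpd1, Chil1, Dhrs9, Tmem45a2, Proca1, Sptb, Rhd and Cox6b2, with adjusted p from 0.0546 to 0.07. Without DKO-II+III replicate 2 only 6 passed, and without DKO-I replicate 1, 4560 did. A fit of the 6 DKO arrays alone passed 0, with 890 at an unadjusted p under 0.05, and a fit of the 4 arrays alone passed 0, with 550. Of the rising genes, 47 passed without DKO-I replicate 1, 44 without DKO-I replicate 2, 37 without DKO-II+III replicate 1 and 2 without DKO-II+III replicate 2, those being Mfsd2b and Alad. Of the falling genes, 17, 12, 5 and 1 passed in the same order, the last being Upp1.

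**Figure D1:**
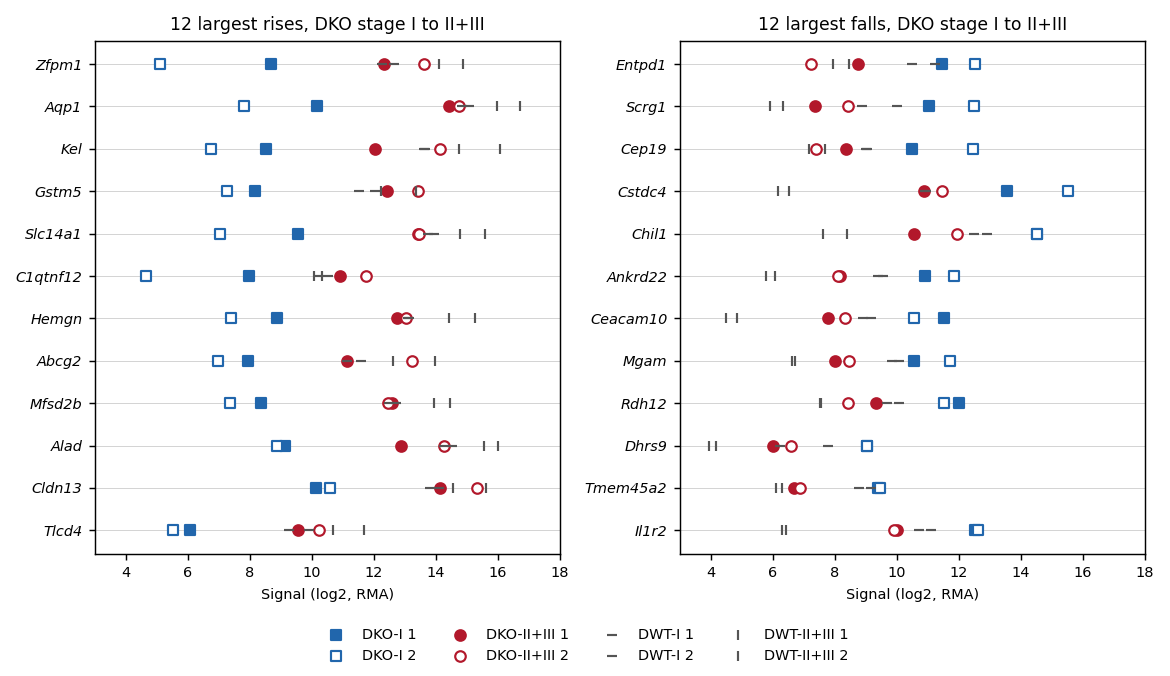
Signal (log2, RMA) of the 12 largest rises and the 12 largest falls that passed in the DKO step, with each of the 4 DKO arrays as a point (squares, stage I; circles, stage II+III; filled, replicate 1; open, replicate 2) and the DWT arrays as dashes (stage I) and ticks (stage II+III). The DKO-I squares lie apart from the DKO-II+III circles in every row, and for the rises the circles often lie near the DWT-I dashes.

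Erythroid transcription regulators rose in 5 of 19 measured members, and none fell, where 0.24% of all named probe sets rose and 0.0869% fell. Zfpm1 (also called FOG1), the cofactor that GATA1 binds, had a signal of 8.66 and 5.09 at DKO-I and of 12.32 and 13.60 at DKO-II+III. Both DKO-I arrays were low and far apart, replicate 2 below its background level of 7.74, and the fitted difference was 6.08 ± 0.91 (SE, log2; adjusted p = 0.0225, limma). It was 4.30 from DKO-I replicate 1 alone, which lay above background. DKO-I replicate 2 also lay below background for Hemgn, Kel, Slc14a1, Mfsd2b, Abcg2, Dmtn, Gstm5 and C1qtnf12. For these too the value from DKO-I replicate 1 alone rests on measured levels. Hemgn, an erythroid nuclear protein, had 8.87 and 7.38 at DKO-I and 12.75 and 13.04 at DKO-II+III, a rise of 4.77 ± 0.49 (adjusted p = 0.00578), and of 4.02 without DKO-I replicate 2. Klf1, the master activator of globin and membrane genes, had 7.98 and 8.76 at DKO-I and 11.65 and 13.05 at DKO-II+III. Its rise of 3.98 ± 0.53 (adjusted p = 0.0143) was 4.37 from DKO-I replicate 1 alone. Sox6, a factor of late erythroid maturation, had a tight stage I pair, 9.42 and 9.59, against 12.66 and 13.62 at DKO-II+III, a rise of 3.64 ± 0.39, and of 3.72 without DKO-I replicate 2. Gfi1b, a repressor needed for red cells, rose by 3.04 ± 0.45, and by 3.51 without that array. Gata1 itself had 7.16 and 8.0 at DKO-I and 8.28 and 8.91 at DKO-II+III, and its difference of 1.02 ± 0.46 did not pass (adjusted p = 0.481; 0.359 without DKO-I replicate 2). The median over the list was 1.02, and 0.84 without DKO-I replicate 2, where Nfia passed as well (2.84, adjusted p = 0.0174). Leaving out DKO-I replicate 1, DKO-I replicate 2, DKO-II+III replicate 1 or DKO-II+III replicate 2, the count of rises was 9, 6, 5 and 0, where 11.2%, 0.399%, 0.312% and 0.0255% of all probe sets rose.

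The 250 bases before the transcription start are shown for 4 rising genes and 1 falling gene, chosen after the motifs were seen, to let the letters be set beside the values. They come from the RefSeq promoter table of build GRCm38.p6 and are written 5′ to 3′ on the strand of the gene. Capitals mark a GATA stretch, AGATAA or TGATAA on either strand, in the first 4 and a C/EBP stretch, TTGCNNAA on either strand, in the last. Hemgn lies at chr4:46404184-46404433 (minus strand), Kel at chr6:41704326-41704575 (minus), Klf1 at chr8:84901732-84901981 (plus), Epor at chr9:21963577-21963826 (minus) and Ankrd22 at chr19:34166042-34166291 (minus).
Hemgn: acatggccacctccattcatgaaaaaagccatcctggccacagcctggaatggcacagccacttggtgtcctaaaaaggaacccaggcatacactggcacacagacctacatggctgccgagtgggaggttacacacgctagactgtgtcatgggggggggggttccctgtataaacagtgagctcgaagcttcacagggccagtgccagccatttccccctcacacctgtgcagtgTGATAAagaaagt
Kel: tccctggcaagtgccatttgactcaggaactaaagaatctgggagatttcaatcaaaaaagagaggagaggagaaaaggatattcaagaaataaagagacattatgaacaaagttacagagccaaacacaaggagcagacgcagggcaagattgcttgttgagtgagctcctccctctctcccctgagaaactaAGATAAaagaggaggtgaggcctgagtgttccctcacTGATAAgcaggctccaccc
Klf1: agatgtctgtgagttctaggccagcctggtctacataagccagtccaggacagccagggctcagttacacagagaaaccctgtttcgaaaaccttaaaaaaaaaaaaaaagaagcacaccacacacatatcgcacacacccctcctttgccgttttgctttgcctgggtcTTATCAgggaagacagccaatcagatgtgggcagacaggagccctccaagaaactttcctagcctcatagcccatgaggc
Epor: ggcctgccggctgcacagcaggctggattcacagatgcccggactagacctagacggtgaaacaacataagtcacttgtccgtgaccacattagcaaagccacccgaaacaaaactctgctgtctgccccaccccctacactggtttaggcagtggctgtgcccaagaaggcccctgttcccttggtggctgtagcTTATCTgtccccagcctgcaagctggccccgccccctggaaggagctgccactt
Ankrd22: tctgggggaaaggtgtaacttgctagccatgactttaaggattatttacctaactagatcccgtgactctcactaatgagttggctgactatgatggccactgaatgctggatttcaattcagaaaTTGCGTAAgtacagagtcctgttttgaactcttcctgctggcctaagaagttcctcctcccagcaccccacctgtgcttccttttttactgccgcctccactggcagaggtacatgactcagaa
Kel held 2 GATA stretches and the other 3 rising genes 1 each. Of the 47 rising genes 35 were matched to the promoter table, and 18 of these (51.4%) held a GATA stretch in the window, against 3 of 15 matched falling genes (20%) and 2558 of 15691 named genes (16.3%). Among genes with a single listed start the shares were 10 of 22 (45.5%), 3 of 11 (27.3%) and 1977 of 13127 (15.1%). The C/EBP stretch lay in 4 of 35 rising genes (11.4%), in 3 of 15 falling genes (20%; Actn1, Ankrd22 and Rdh12) and in 1630 of all (10.4%). The KLF letters CCNCNCCC, on either strand, lay in 26 of 35 (74.3%), 10 of 15 (66.7%) and 8972 (57.2%). A stretch of letters is a description of the window, not evidence that a factor binds there.

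Red cell membrane and skeleton genes gave the largest group, with 13 of 24 measured members higher at stage II+III, none lower and a median of 3.24. Over all named probe sets 0.24% rose and 0.0869% fell. Aqp1, the water channel, had a signal of 10.15 and 7.80 at DKO-I and of 14.43 and 14.75 at DKO-II+III. It rose by 5.61 ± 0.61 on the log2 scale, 48.9-fold (adjusted p = 0.00578, limma), and by 4.44 without DKO-I replicate 2. Kel, the Kell blood group glycoprotein, had 8.50 and 6.73, then 12.04 and 14.13, a rise of 5.47 ± 0.73, and of 4.59 without DKO-I replicate 2. Its stage II+III arrays lay apart from each other, yet both were above the DKO-I arrays. Slc14a1, the red cell urea transporter, had 9.56 and 7.05 at DKO-I and nearly equal values of 13.43 and 13.45 at DKO-II+III, and rose by 3.88 from DKO-I replicate 1 alone. Mfsd2b, which exports sphingosine-1-phosphate from red cells, had 8.36 and 7.34, then 12.58 and 12.44. Its rise of 4.66 ± 0.41 (4.15 without DKO-I replicate 2) passed when each of the 4 arrays was left out in turn. Abcg2, an exporter of porphyrins and other small molecules, had 7.93 and 6.98, then 11.12 and 13.21, with a rise of 4.23 from DKO-I replicate 1 alone (adjusted p = 0.0499).

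The skeleton and its anchors were among the members that rose. Ank1, the ankyrin that ties spectrin to the membrane, had 8.62 and 9.86 at DKO-I and 12.02 and 14.04 at DKO-II+III, a rise of 3.79 ± 0.61 (adjusted p = 0.0338, limma), and of 4.41 without DKO-I replicate 2. Dmtn, the actin-bundling protein dematin, rose by 4.06 ± 0.43, and by 3.79 without that array. Sptb, beta-spectrin, lay below background at DKO-I and rose by at least 2.23, but did not pass without DKO-I replicate 2 (adjusted p = 0.0641). Slc4a1, the anion exchanger band 3, was well above background throughout, at 13.20 and 12.23 at DKO-I and 15.17 and 15.52 at DKO-II+III. It rose by 2.63 ± 0.32 (adjusted p = 0.0105), and by 2.15 without DKO-I replicate 2. Rhag, the Rh-associated glycoprotein, had 10.63 and 12.15, then 14.09 and 14.82, and here DKO-I replicate 2 was the higher stage I array, so that the rise of 3.06 was 3.82 without it. Ermap, an erythroblast membrane protein, had nearly equal pairs, 8.54 and 8.53 against 11.42 and 11.40, a rise of 2.87 ± 0.40 with and without DKO-I replicate 2. The list had a median of 2.78 without DKO-I replicate 2. Without DKO-II+III replicate 2 its median was 2.75, but few of all the rising genes passed in that fit, as given above.

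Haem synthesis rose in 2 of 18 measured members and none fell, with a median of 2.19. Of all named probe sets 0.24% rose and 0.0869% fell. Alad, which joins aminolevulinic acid into the first pyrrole, had 9.14 and 8.87 at DKO-I and 12.86 and 14.27 at DKO-II+III. Its rise was 4.56 ± 0.44 on the log2 scale, 23.7-fold (adjusted p = 0.00578, limma), and 4.43 without DKO-I replicate 2. Cpox, coproporphyrinogen oxidase, had 9.77 and 10.25, then 12.93 and 14.54, a rise of 3.72 ± 0.52, and of 3.96 without DKO-I replicate 2. Alas2, the erythroid rate-limiting enzyme, had 14.80 and 14.45, then 15.74 and 17.28. Its arrays did not overlap, but the difference of 1.89 ± 0.41 did not pass (adjusted p = 0.117; 0.212 without DKO-I replicate 2). Without DKO-I replicate 2 the list had a median of 1.69, and the haem-binding protein Hebp1 rose by 3.32. The list's median was 2.63 without DKO-I replicate 1 and 1.59 without DKO-II+III replicate 2, where few of all the rising genes passed. Of 9 globin genes in the list only 3 were measured, Hbb-y, Hbb-bh1 and Hba-x, all below background in these arrays. Hbq1b and Hbq1a, globin genes outside the list, lay above background in both DKO-II+III arrays. Hbq1b had 7.93 and 9.89 at DKO-I, then 10.74 and 11.77, and Hbq1a had 7.35 and 8.97, then 9.45 and 10.22. Their changes of 2.35 and 1.68 did not pass (adjusted p = 0.216 and 0.377, limma). Without DKO-I replicate 2 these changes were 3.33 and 2.49.

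In iron handling 1 of 18 measured members rose. Over all named probe sets the share was 0.24%, which also applies to the other lists of this paragraph. Tfr2, the transferrin receptor that associates with the erythropoietin receptor, had 6.85 and 5.89 at DKO-I, below background, and 9.85 and 9.81 at DKO-II+III, a rise of at least 2.15 on the log2 scale against the background level (adjusted p = 0.0151, limma; 0.0238 without DKO-I replicate 2). Tfrc, which brings in iron-loaded transferrin, had 9.33 and 7.27, then 11.28 and 12.37, and its difference of 3.52 ± 0.74 did not pass (adjusted p = 0.0967). In erythropoietin signalling 1 of 13 rose. Epor, the receptor, had 7.35 and 6.76, below background, then 9.57 and 10.16, a rise of at least 2.19 (adjusted p = 0.0297; 0.0396 without DKO-I replicate 2). Of 24 genes of terminal maturation, ubiquitin and autophagy only Ubac1, a ubiquitin ligase subunit, rose, from 10.16 and 8.20 to 12.49 and 13.79, by 2.98 without DKO-I replicate 2. Xpo7, a nuclear exporter used in late erythroblasts, had 12.30 and 9.68, then 13.31 and 13.81, without passing (adjusted p = 0.214).

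Further rises were in genes of other kinds. Gstm5, a glutathione transferase, had a signal of 8.16 and 7.27 at DKO-I and of 12.41 and 13.42 at DKO-II+III, a rise of 5.19 ± 0.56 on the log2 scale (adjusted p = 0.00578, limma), and of 4.75 without DKO-I replicate 2. Cldn13, a claudin, had 10.12 and 10.58, then 14.11 and 15.32, a rise of 4.60 without that array. C1qtnf12, a secreted C1q-like protein, had 7.96 and 4.65, then 10.89 and 11.74, and depended on DKO-I replicate 2 for much of its size: 5.01 with it, 3.35 without. Tlcd4 had 6.07 and 5.50, below background, then 9.54 and 10.22, a rise of at least 2.20 that passed without that array too (adjusted p = 0.024). Car1, the carbonic anhydrase of early red cells, had 11.88 and 13.74, then 16.05 and 16.35. It rose by 3.39 ± 0.50, and by 4.32 without DKO-I replicate 2, the higher of the stage I arrays. Odc1, the polyamine enzyme and a Myc target, had 10.00 and 9.92, then 12.22 and 12.71, a rise of 2.50 ± 0.39 (2.46 without that array). It was the only call among 19 genes of Myc and ribosome biogenesis, against 0.327% of all named probe sets.

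**Figure D2:**
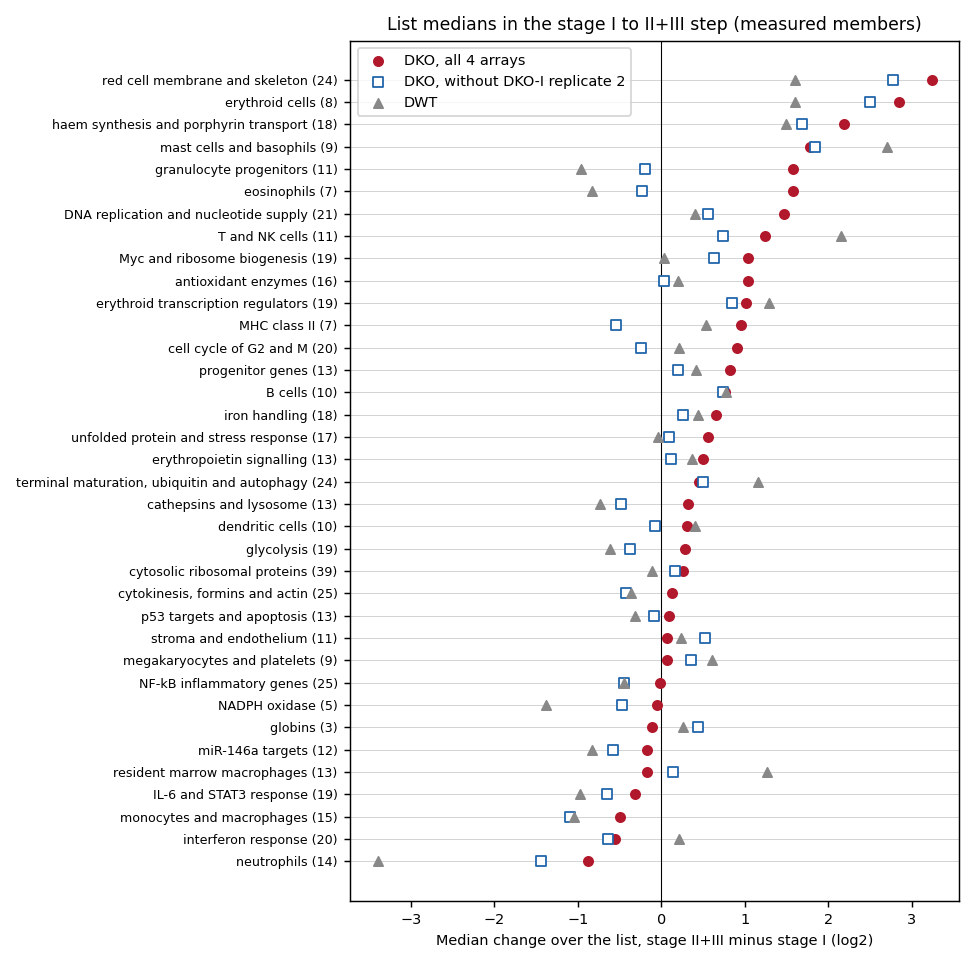
Median log2 change from stage I to stage II+III over the measured members of each gene list (number in brackets), in DKO with all 4 arrays (circles), in DKO without DKO-I replicate 2 (squares) and in DWT (triangles). Red cell membrane genes stand at 3.24, 2.78 and 1.61 and neutrophil genes at -0.88, -1.45 and -3.40.

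The 17 falling genes began at a median signal of 11.38 at DKO-I and were at 8.04 at DKO-II+III. Entpd1, the surface enzyme CD39 that breaks down extracellular ATP, had 11.46 and 12.50 at DKO-I and 8.73 and 7.22 at DKO-II+III. It fell by 4.0 on the log2 scale (SE 0.61, adjusted p = 0.026, limma), 16.0-fold, and did not pass without DKO-I replicate 2 (adjusted p = 0.0621). Scrg1 had 11.02 and 12.48, then 7.36 and 8.41. Cep19, a centrosomal protein, had 10.49 and 12.44, then 8.36 and 7.37. In all of these the stage I arrays were the high ones without overlap. Ankrd22, whose upstream bases are printed above, had 10.91 and 11.84, then 8.16 and 8.10, and fell by 3.24 (SE 0.37, adjusted p = 0.00646). From DKO-I replicate 1 alone Scrg1 fell by 3.13, Cep19 by 2.62 and Ankrd22 by 2.78, and all 3 passed.

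Several falling genes are known from neutrophils. Il1r2, the decoy receptor of interleukin 1, had very tight pairs, 12.52 and 12.59 at DKO-I and 10.01 and 9.91 at DKO-II+III, and fell by 2.60 on the log2 scale (SE 0.34, adjusted p = 0.0143, limma), and by 2.57 without DKO-I replicate 2. Chil1, a chitinase-like protein, had 14.51 and 14.53, then 10.56 and 11.92, and fell by 3.28 (SE 0.56). Its adjusted p of 0.0414 became 0.07 without DKO-I replicate 2. Mgam, a maltase-glucoamylase, had 10.55 and 11.71, then 8.01 and 8.43. Cstdc4, a cystatin-family protein, had 13.53 and 15.52, then 10.88 and 11.45, and Ceacam10, an adhesion protein, had 11.52 and 10.54, then 7.77 and 8.32. Without that array Mgam fell by 2.33, Cstdc4 by 2.36 and Ceacam10 by 3.48, and all 3 passed. The retinol dehydrogenases Rdh12 and Dhrs9 both fell. Rdh12 went from 12.01 and 11.50 to 9.33 and 8.40, and fell by 3.14 without that array. Dhrs9 went from 9.03 and 9.02 to 6.00 and 6.59, below background, a fall of at least 1.49. Tmem45a2 fell in the same way, from 9.38 and 9.46 to 6.67 and 6.87. Neither passed without DKO-I replicate 2 (adjusted p = 0.0646 for Dhrs9 and 0.0622 for Tmem45a2). Of the other 5, Slfn4 fell by 2.53 and Actn1 by 2.40, while Upp1 and Aldh3b3 ended below background and fell by at least 1.47 and 1.14. Proca1 was below background in all 4 arrays.

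Set beside these falls, S100a8 and the mean of the neutrophil markers stayed high at DKO-II+III. S100a8, a calprotectin subunit, had 18.50 and 17.87 at DKO-I and 17.71 and 17.71 at DKO-II+III, a difference of -0.47 ± 0.71 (adjusted p = 0.805, limma). In the DWT arrays it had 17.92 and 18.07, then 14.13 and 15.24. Over the 14 measured neutrophil markers the mean signal was 16.83 and 15.36 at DKO-I, 15.32 and 15.29 at DKO-II+III, 15.94 and 16.19 at DWT-I, and 11.19 and 13.02 at DWT-II+III. None passed in the DKO step (median -0.88), where 0.327% of all named probe sets passed. At that share the lack of calls among 14 markers says nothing about them. In the DWT step 4 fell (median -3.40), where 0.22% of all named probe sets fell. The difference between the steps had a median of 2.87 and passed for 0 of the 14, so no marker is shown to differ. From DKO-I replicate 1 alone none of the 14 was higher at DKO-II+III, and their median change was -1.45. Cxcr2, the chemokine receptor of neutrophils, did not stay at its level. It went from 14.48 in that array to 11.22 and 10.96, a change of -3.38. With all arrays its change was -2.23 (adjusted p = 0.355, limma).

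Granulocyte progenitor and eosinophil markers moved with DKO-I replicate 2. The 11 granulocyte progenitor markers had means of 13.66 and 10.31 at DKO-I and 13.58 and 12.80 at DKO-II+III, with a median change of 1.58, and of -0.19 without that array. Elane, neutrophil elastase, had 17.34 and 13.85, then 17.56 and 17.38. The 7 eosinophil markers had means of 10.80 and 7.30, then 12.39 and 8.78, so both stages held a high and a low array, and their median change was 1.58, and -0.23 without DKO-I replicate 2. The 15 monocyte and macrophage markers had a median of -0.50, and of -1.10 without it. Markers of mast cells and basophils had a median of 1.79 (9 measured), of T and NK cells 1.24 (11) and of B cells 0.77 (10), and of 1.84, 0.74 and 0.74 without DKO-I replicate 2. Their means were higher in DKO-II+III replicate 1 than in replicate 2, at 9.46 against 8.02, 10.65 against 9.30 and 9.29 against 7.27. No member of these 6 lists passed with all 4 arrays, against 0.327% of all named probe sets. The part of these cells in the rises and falls above was not tested.

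**Figure D3:**
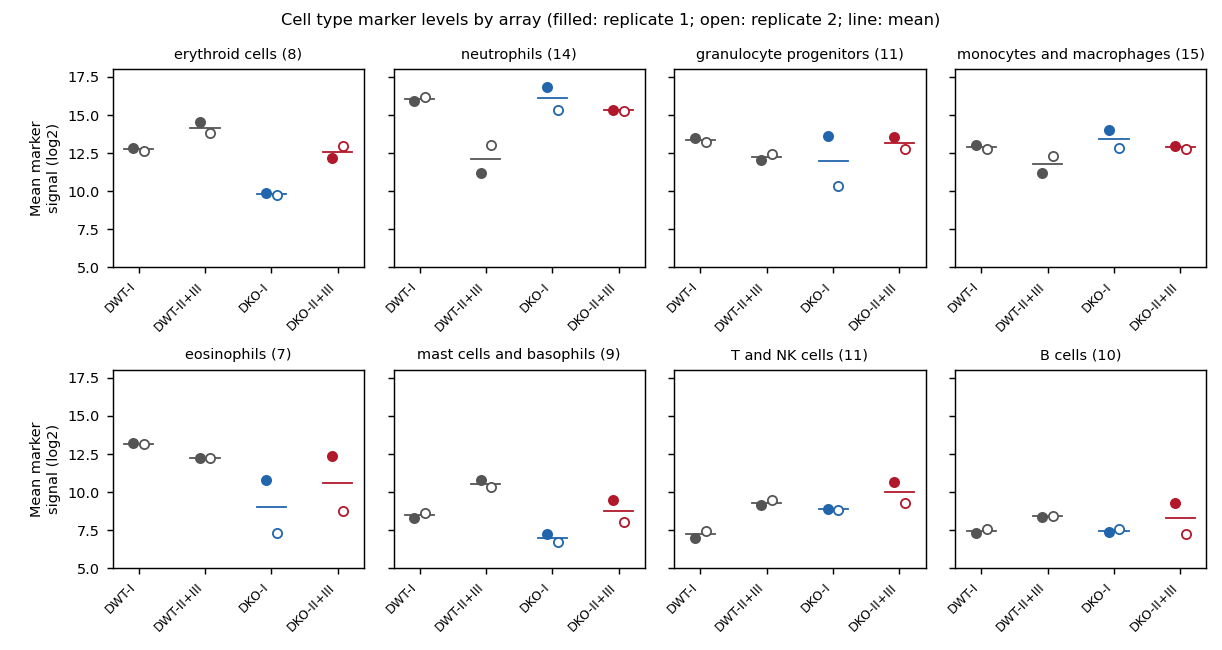
Mean signal (log2) of the measured markers of 8 cell types in each array of DWT and DKO at stages I and II+III (filled, replicate 1; open, replicate 2; line, mean of the pair). Erythroid markers are lowest in both DKO-I arrays, and neutrophil markers fall between stages in DWT to 11.19 and 13.02 while they stay at 15.32 and 15.29 in DKO-II+III.

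Genes of division and growth had smaller differences once DKO-I replicate 2 was left out. Mki67, the proliferation marker, had 15.99 and 12.61 at DKO-I and 16.33 and 16.52 at DKO-II+III, a difference of 2.13 on the log2 scale that did not pass (adjusted p = 0.423, limma) and of 0.44 without that array. The 20 genes of the G2 and M phases had a median of 0.91, and of -0.24 without it; the 21 genes of DNA replication had 1.46 and 0.55. Rps14, a ribosomal protein, had 16.88 and 12.32, then 17.28 and 16.64, so its difference of 2.37 came down to 0.09. Over 39 cytosolic ribosomal proteins the median was 0.25 with all arrays and 0.16 without that array. No gene of these 3 lists passed, against 0.327% of all named probe sets, a share at which lists of this size could hold none. Kit, the stem cell factor receptor of early progenitors, varied within both stages, at 12.26 and 5.76, then 14.46 and 10.37, and did not pass (adjusted p = 0.555). Cd34, Myb and Kit were all higher in DKO-II+III replicate 1 than in replicate 2, Cd34 at 13.25 against 8.62 and Myb at 14.06 against 10.71.

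Inflammatory lists showed no call in the DKO step with all 4 arrays. Of all named probe sets 0.327% passed, so lists of this size could hold none. The 25 NF-kB genes had a median of -0.01, the 19 genes of the interleukin 6 and STAT3 response -0.32 and the 20 interferon genes -0.55, and without DKO-I replicate 2 these were -0.45, -0.65 and -0.64. In that fit 1 NF-kB gene passed, Ptgs2, the inducible cyclooxygenase, which had 9.96 and 8.10, then 7.79 and 7.17, and fell by 2.48 (adjusted p = 0.0303, limma). Saa3, an acute-phase protein, had a signal of 14.27 and 16.46 at DKO-I and of 12.37 and 15.93 at DKO-II+III. The stages overlapped, and the difference of -1.22 did not pass (adjusted p = 0.702, limma). In DWT it lay below background, from 5.53 to 6.22 over both stages. The 25 genes of cytokinesis, formins and actin, the group to which Diaph1 belongs, had a median of 0.13. None of them passed with all 4 arrays, again against 0.327% of all named probe sets. Without DKO-I replicate 2 the median was -0.43 and Gsn, the actin-severing protein gelsolin, passed as lower (adjusted p = 0.0327), at 8.86 and 7.10, then 6.73 and 6.95, both below background.

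Measured from DKO-I replicate 1 alone, 62 further genes passed. The largest difference between the stage I arrays among the rises was in Ctse, a cathepsin of erythroid cells, at 13.02 and 6.78 at DKO-I against 15.73 and 16.24 at DKO-II+III. It changed by 6.09 on the log2 scale with all arrays (adjusted p = 0.145, limma), and by 2.97 without DKO-I replicate 2 (adjusted p = 0.000732). Among the falls, Hdc, the histamine-making enzyme, had 13.48 and 10.17, then 10.80 and 9.56. Slc27a4, a fatty acid transporter, had 10.75 and 7.68, then 7.39 and 7.89, and Lin28a, an RNA-binding protein, 10.37 and 7.5, then 7.30 and 6.89. In each, DKO-I replicate 2 already stood near the DKO-II+III level. For Lin28a that array and both DKO-II+III arrays lay below background. For Slc27a4 that array and DKO-II+III replicate 1 did. Ly6g5b had 10.36 and 5.21, then 7.69 and 6.62, so its direction depends on which stage I array is used. Its values in DKO-I replicate 2 and DKO-II+III replicate 2 lay below background. All 78 rises and all 40 falls found without DKO-I replicate 2 kept their sign in the mean of all arrays.

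**Figure D4:**
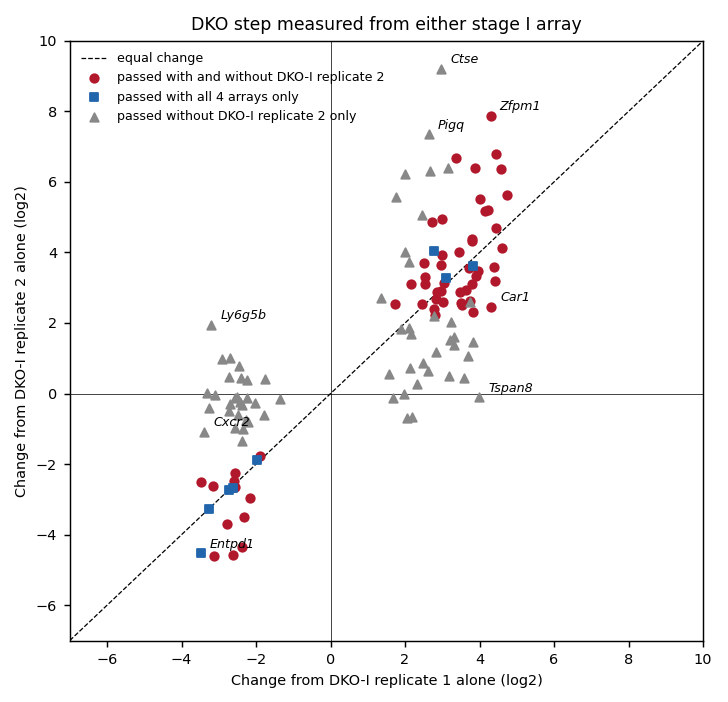
Log2 change in the DKO step measured from DKO-I replicate 1 alone (horizontal) and from DKO-I replicate 2 alone (vertical), for genes that passed with and without replicate 2 (circles, 56), with all 4 arrays only (squares, 8) and without replicate 2 only (triangles, 62). Circles and squares lie in the quadrants of equal sign, and many triangles lie near 0 on the vertical axis.

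The DWT step was used to ask whether the knockout changes the step itself. In DWT 48 probe sets passed, 5 up (0.0255%) and 43 down (0.22%). Of the 47 genes that rose in DKO, 46 had a positive change in DWT too, the exception being C1qtnf12 at -0.17, and 0 passed there. In the fit without DKO-I replicate 2, 19 of the 47 passed in DWT, where 1.51% of all probe sets passed in either direction and 0.593% upward. Their median change was 1.61 in DWT against 3.46 in DKO. Of the 17 that fell in DKO all were lower in DWT and 11 passed there, with medians of -2.94 and -2.89. All 43 genes that fell in DWT were also lower at DKO-II+III, each by less than in DWT (medians -3.55 and -1.84). These genes were chosen by the change in their own genotype, which alone favours a larger change there, so these counts support nothing about the genotypes.

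The difference of the steps was tested directly and passed for 0 of 19572 probe sets (0%; limma, smallest adjusted p 0.0927, 942 at an unadjusted p under 0.05). Zfpm1 changed by 4.05 ± 1.28 (log2) more in DKO than in DWT, Aqp1 by 4.23 ± 0.86 and C1qtnf12 by 5.18 ± 1.21, each with an adjusted p of 0.799. Without DKO-I replicate 2 only Car1 passed (0.00511% of all), with a change larger by 3.74 in DKO (adjusted p = 0.0218). Car1 had 15.59 and 15.15 at DWT-I and 16.08 and 15.82 at DWT-II+III, so the DKO-I arrays were the low ones and the stage II+III arrays of both genotypes lay close together. Across 8780 probe sets above background in at least 2 of the 8 arrays, the changes of both genotypes had a Pearson r of 0.43 over genes, which are not independent. It was 0.66 from DKO-I replicate 1 alone and 0.17 from replicate 2 alone.

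**Figure D5:**
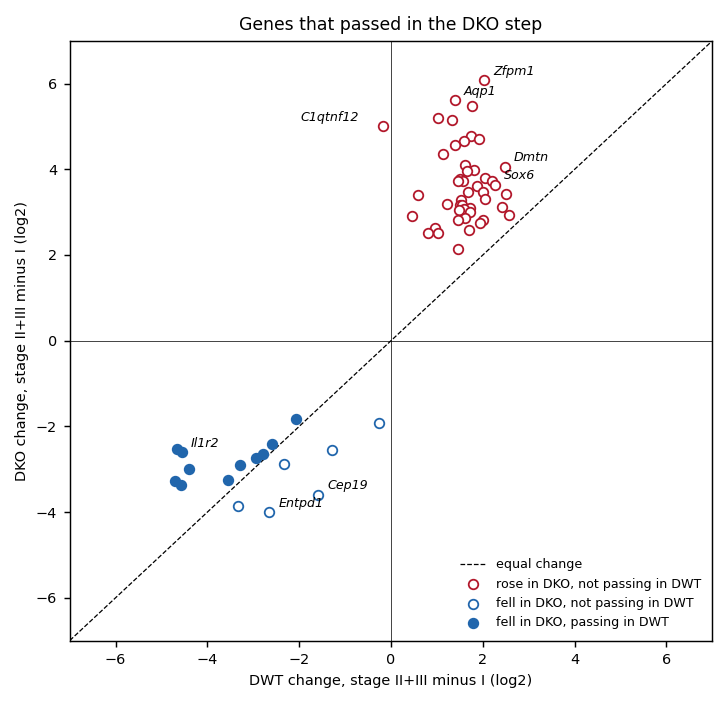
Log2 change from stage I to stage II+III in DWT (horizontal) and DKO (vertical) for the 64 genes that passed in the DKO step (red, rose; blue, fell; filled, also passed in DWT; dashed line, equal change). All 47 rises lie above the line, and the 17 falls lie on both sides of it.

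The levels themselves placed DKO-II+III near DWT-I for the rising genes. Their median signal was 8.30 at DKO-I, 12.47 at DKO-II+III, 12.38 at DWT-I, 14.19 at DWT-II+III and 15.3 at DKO-IV. The DKO-II+III mean lay between the DWT-I and DWT-II+III means for 22 of the 47, on the DWT-I side of both for 21 and beyond DWT-II+III for 4. All 47 were lower at DKO-I than at DWT-I, and 43 were lower at DKO-II+III than at DWT-II+III. At DKO-IV 46 of 47 were higher again. Slc4a1 was among the 21, at 13.20 and 12.23 at DKO-I, 15.17 and 15.52 at DKO-II+III, 16.47 and 16.42 at DWT-I and 17.52 and 17.30 at DWT-II+III. The falling genes ran the other way, from 11.38 at DKO-I to 8.04 at DKO-II+III and 6.37 at DKO-IV, against 9.44 at DWT-I and 6.34 at DWT-II+III. All 17 were higher at DKO-I than at DWT-I, and all 17 had a lower mean again at DKO-IV. The genes were chosen with the DKO-I values, so their distance from DWT-I is a description only.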

How the data were processed

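RNA of erythroblasts was measured on 20 mouse Clariom S arrays, 2 per group, after Trizol extraction and Pico amplification per the labels' protocols. The authors deposited log2 values made with RMA in Affymetrix Expression Console, per the submitters' processing notes; versions and whether all arrays were normalized together are not given in the sources used here. RMA sets arrays to a common distribution, so changes are relative to it. Of 28846 probe sets, 19572 had 1 gene symbol (19505 genes) and were tested.

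The 12 in vivo arrays were fitted as group means with limma 3.58.1 (R 4.3.3; lmFit, eBayes with an intensity trend; 6 residual and 4.52 prior degrees of freedom), 2-sided, with Benjamini-Hochberg adjustment over all 19572 and a threshold of 0.05. The number of arrays limits the precision. A gene below the 95th percentile of the background probe sets in both arrays of a group has a bound, set at that level. The fit was run on simulated data in which all arrays shared a single spread per gene. The wide DKO-I pair was not imitated, so that run cannot tell how far the calls hold here.

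The 36 lists (528 of 589 genes measured, 2 list entries through an older symbol) and the compared groups were chosen with earlier results of these data known. Genes named were Diaph1; the 12 highest and 12 lowest passing changes with arrays apart and the higher group above background; the 8 highest and lowest without DKO-I replicate 2 and, had any passed, of the difference between genotypes; up to 4 passing members per list by size; and a fixed set named whatever their result. Dmtn, Sptb, Gfi1b, Nfia, Hebp1, Hbq1b, Hbq1a, Fas, Ctse, Gsn, Ptgs2, Rhd, Cox6b2, Cd34 and Myb were named after their values were seen. So were the other 5 falls and the genes of the other observations. The closing section gives the alternatives.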

Additional observations from a re-analysis of the deposited data

Results flagged for a closer look

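Car1 differed between the genotypes in its stage I to II+III change once DKO-I replicate 2 was left out: the change was larger by 3.74 on the log2 scale in DKO (adjusted p = 0.0218, limma), and by 2.81 with all arrays (adjusted p = 0.799). It was higher in both DKO-II+III arrays than in either DKO-I array.

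In Elane and Traf6 both DKO-II+III arrays lay above both DKO-I arrays, while both DWT-II+III arrays lay below both DWT-I arrays. The share of all named probe sets with this pattern is not given here, so it adds no support. For Elane the nearest DKO arrays were 17.34 at stage I and 17.38 at stage II+III. Traf6 in DKO-I replicate 2, at 7.53, lay below its background level of 7.74. The change was larger in DKO by 2.42 for Elane and by 1.30 for Traf6 (log2), and the test of the difference did not pass for either (adjusted p = 0.799, limma). Without DKO-I replicate 2 the DKO change was 0.13 for Elane and 0.25 for Traf6.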

How the results depend on the processing

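The 64 calls of the DKO step became 269 with all 20 arrays in 1 fit, 0 with the 6 DKO arrays only, 0 with the arrays of the compared groups only (smallest adjusted p 0.960), 6 with array weights and 41 with sex as a term. They were 62 with quantile normalization, 60 with arrays centred on the median, 77 without the intensity trend, 94 after a filter on dim probe sets (9298 tested) and 64 with unnamed probe sets added. Leaving out each replicate in turn gave from 6 (without DKO-II+III replicate 2) to 4560 calls (without DKO-I replicate 1). The 48 DWT calls became 300 with all 20 arrays, 911 with the compared groups only and 784 with array weights, and ranged from 4 to 12 without each DWT replicate. The 0 calls of the difference became 4 with all 20 arrays and 1 without the intensity trend, and ranged from 0 to 2700 without each replicate, the highest without DKO-I replicate 1. Fits without a replicate assume for the lone array the spread of the remaining groups, and dropping an array of DKO-I takes its spread out of the shared estimate; other causes were not tested. Of the named genes 36 had passed. Among the 14 alternatives run, only quantile normalization and centring on the array median could have turned their direction. The others used the same values, in which the arrays of the stages do not overlap. All 36 kept their direction under the 14 alternatives. They passed in 6 to 12 of them; 32 passed without DKO-I replicate 2. Of the 17 that had not passed, 4 changed sign: Diaph1 ranged from -0.35 to 0.24 without each replicate, with 0.04 without DKO-I replicate 1; Ly6g5b from -3.20 to 1.95; Hdc from -3.30 to 0.005; and Saa3 from -2.99 to 0.56. No paired analysis was possible because no label ties DKO arrays of different stages to a mouse and the replicate numbers were given in accession order.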

Other observations

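Of 361 measured solute carrier genes (symbols beginning with Slc, a family picked after the values were seen) 7 rose and 0 fell, which is 1.94% upward against 0.24% of all named probe sets, and their median change was -0.06. Of the 7, 5 were in no list. Slc6a9, a glycine transporter, had a signal of 8.96 and 8.29 at DKO-I and of 11.36 and 12.49 at DKO-II+III, and rose by 3.30 ± 0.49 on the log2 scale (adjusted p = 0.0225, limma). Slc38a5, an amino acid transporter, had 8.58 and 8.51, then 11.35 and 11.92. Slc39a8, a zinc and manganese importer, had 7.75 and 6.98, then 10.06 and 10.50, with a change of 0.45 in DWT; the difference between the genotypes did not pass (2.47, adjusted p = 0.799, limma). Slc25a51, the mitochondrial NAD carrier, had 12.38 and 11.58, then 13.73 and 14.50, the smallest rise that passed at 2.14 ± 0.37.

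Fhdc1 and Spire1, actin nucleators picked after their values were seen, rose. Of the 25 listed genes of cytokinesis, formins and actin 0 passed with all arrays (median 0.13), against 0.327% of all named probe sets. Fhdc1, a formin, had 8.14 and 6.95 at DKO-I and 10.20 and 11.11 at DKO-II+III, a rise of 3.11 ± 0.51 (adjusted p = 0.0338, limma). Spire1, which works with formins, had 10.28 and 9.72, then 13.08 and 14.36, a rise of 3.72 ± 0.45 (adjusted p = 0.00963). In DWT Fhdc1 changed by 2.43 and Spire1 by 1.47, and the difference between the genotypes did not pass for either (adjusted p = 0.822 and 0.799).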
